A study of Mus musculus with 6 samples.

Results

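The 10 circadian clock genes *Arntl*, *Clock*, *Npas2*, *Per1*, *Per2*, *Per3*, *Cry1*, *Nr1d1*, *Nr1d2* and *Dbp* were taken by name from the 35540 gene symbols in a liver RNA-sequencing table. All 10 had a mean of 0.1 TPM or more (transcript abundance corrected for transcript length and scaled to the same total in every mouse) and so were among the 14189 symbols tested. The livers were those of 3 mice of the genotype *Surf4* fl/fl Alb-Cre+ and of 3 littermates without the transgene, *Surf4* fl/fl Alb-Cre-, which served as controls, all on a C57BL/6J background. Both groups carried *Surf4* alleles with exon 2 between loxP sites, and *Surf4* encodes a cargo receptor of the endoplasmic reticulum. Alb-Cre expresses Cre recombinase from the albumin promoter, which is active in hepatocytes, so that other liver cells of Alb-Cre+ mice keep the gene. Replicate 2 of either genotype was a female, and the other mice were males. Mice were housed in 12 h of light and 12 h of dark at 22 °C and, per the study's methods, were fasted overnight before samples were collected. The time of day at which each liver was taken, the order of collection and the age of these mice are not given in the sources used here. Levels were compared between the genotypes on log2(TPM + 0.1) with limma, which fits all genes at once, and the Benjamini-Hochberg adjustment was made over all 14189 symbols, with a threshold of 0.01.

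The mammalian clock is a feedback loop in transcription. ARNTL (BMAL1) pairs with CLOCK or its relative NPAS2 and binds E-box DNA, which raises the transcription of the *Per*, *Cry*, *Nr1d* and *Dbp* genes. PER and CRY proteins then inhibit ARNTL and its partner, the NR1D proteins (REV-ERBs) repress *Arntl* and other genes through RORE sites, and DBP activates genes with D-box sites. In mouse liver these transcripts peak in a fixed order over the day, with *Arntl* and *Npas2* near the end of the dark phase and the start of the light phase, *Nr1d1* in the middle of the light phase, *Dbp* later in it, the *Per* genes around the change from light to dark, and *Cry1* late in the dark phase. A single liver therefore holds a snapshot of the cycle, and genes at opposite positions are the ones that tell mice apart.

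The sites of this loop in the promoters of the genes described below are shown first, since the known factors of the loop act through these motifs. Sequences are from RefSeq (GRCm38.p6), read 5′ to 3′ on the strand of the gene, with the site in capitals. The searched letters were CACGTG for the E-box, CACGTT for the weaker E′-box, TTATGTAA or TTACGTAA for the D-box, and AGTAGGTNA for the RORE, each on both strands, and no position can match both the E-box and the E′-box.

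Arntl, RORE, chr7:113207493-113207522, plus strand: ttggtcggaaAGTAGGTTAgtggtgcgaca

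Arntl, RORE, chr7:113207529-113207558, plus strand: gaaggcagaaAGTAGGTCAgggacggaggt

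Per1, E-box, chr11:69098756-69098815, plus strand: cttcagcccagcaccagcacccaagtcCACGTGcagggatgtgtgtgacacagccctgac

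Cry1, E′-box and E-box, chr10:85185091-85185150, minus strand: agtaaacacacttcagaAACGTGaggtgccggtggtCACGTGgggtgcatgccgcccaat

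Nr1d1, E′-box, chr11:98775378-98775437, minus strand: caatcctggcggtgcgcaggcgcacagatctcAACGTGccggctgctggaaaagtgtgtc

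Per3, D-box and D-box, chr4:151044803-151044882, minus strand: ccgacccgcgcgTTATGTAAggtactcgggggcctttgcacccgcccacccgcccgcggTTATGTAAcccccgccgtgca

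The promoter table covered 250 bases before to 50 bases after each start, and 9 of the 10 clock genes matched it by symbol, with 13 promoters. Among 32851 promoters of all genes, an E-box was found in 7.15%, an E′-box in 4.68%, a D-box in 1.06% and a RORE in 0.591%. Both *Arntl* ROREs lay within 50 bases of annotated starts, and *Per3* held 2 D-boxes in its promoter. The promoters of *Clock*, *Npas2*, *Nr1d2* and *Dbp* held none of these letters, which says only that they were not in this window. A match is a description of the sequence and not a measured binding site.

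The genotype was checked first. *Surf4* had 59, 71.8 and 54.3 TPM in Alb-Cre+ replicates 1, 2 and 3 and 92.5, 94.5 and 92.5 TPM in the controls, without overlap. The log2 fold change was -0.60 ± 0.13 (SE) and did not pass limma's adjusted threshold (adjusted p = 1, and 0.472 with the replicate number as a block). TPM were summed over the transcripts of the gene, and mRNA without the exon between the loxP sites was not counted apart. The fold change is therefore not a measure of how much of the gene was excised. The study reported efficient excision of that exon in the liver, where *Surf4* mRNA lacking it was still found. All 7 lists of cell type markers were detected in full in liver, with no marker at 0 in all mice. Summed markers of hepatocytes lay between 63600 and 83900 TPM in Alb-Cre+ mice and between 79300 and 90300 TPM in controls. Of these markers, *Apoa1* had 10200, 9780 and 8800 TPM in Alb-Cre+ mice and 17600, 20800 and 15800 TPM in controls. *Ttr* was also lower in every Alb-Cre+ mouse than in any control. The groups overlapped for *Alb*, *Serpina1c*, *Cyp2e1* and *Cps1*. The female mice stood above the males in the summed markers of the other cell types except cholangiocytes. For these the females had 3.37 and 3.19 TPM (Alb-Cre+ and Alb-Cre-), within the range of the males of 2.24 to 4.02 TPM. Markers of Kupffer cells and macrophages summed to 461 TPM in Alb-Cre+ replicate 2 and 424 TPM in Alb-Cre- replicate 2, against 116 to 181 TPM in the males, and neutrophil markers to 248 and 118 TPM, against 18.8 to 44.1 TPM. In whole liver, fewer cells of a type and less RNA per cell cannot be told apart.

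No clock gene differed between the genotypes at an adjusted p of 0.01, where 0 of 14189 genes (0%) did, and none had an unadjusted limma p under 0.05, where 250 genes did (1.76%, of which 114 were higher and 136 lower in Alb-Cre+ mice). The median log2 fold change was -0.05 over the 10 clock genes and -0.00 over all genes tested, with 7 clock genes lower and 3 higher in Alb-Cre+ mice. This fit held genotype alone, without sex or the replicate number. With sex as a covariate 531 genes had an unadjusted limma p under 0.05, with 0 clock genes among them. With the replicate number as a block 666 genes (4.69%) had one, with 1 clock gene among them. In the fit of genotype alone, the smallest adjusted p of any gene was 0.456. The study itself, with DESeq2, reported genes past a false discovery rate of 0.01 between these genotypes, *Derl3* among them. That no gene passed in this fit to TPM therefore does not mean that no gene differed. Each clock gene's adjusted p was 1. The 95% confidence intervals of *Arntl*, *Npas2*, *Per2*, *Per3* and, by a small margin, *Nr1d1* reached past 1 on the log2 scale, a 2-fold change, in at least 1 direction, while those of *Clock*, *Cry1* and *Nr1d2* stayed between -0.78 and 0.55.

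**Figure D1:**
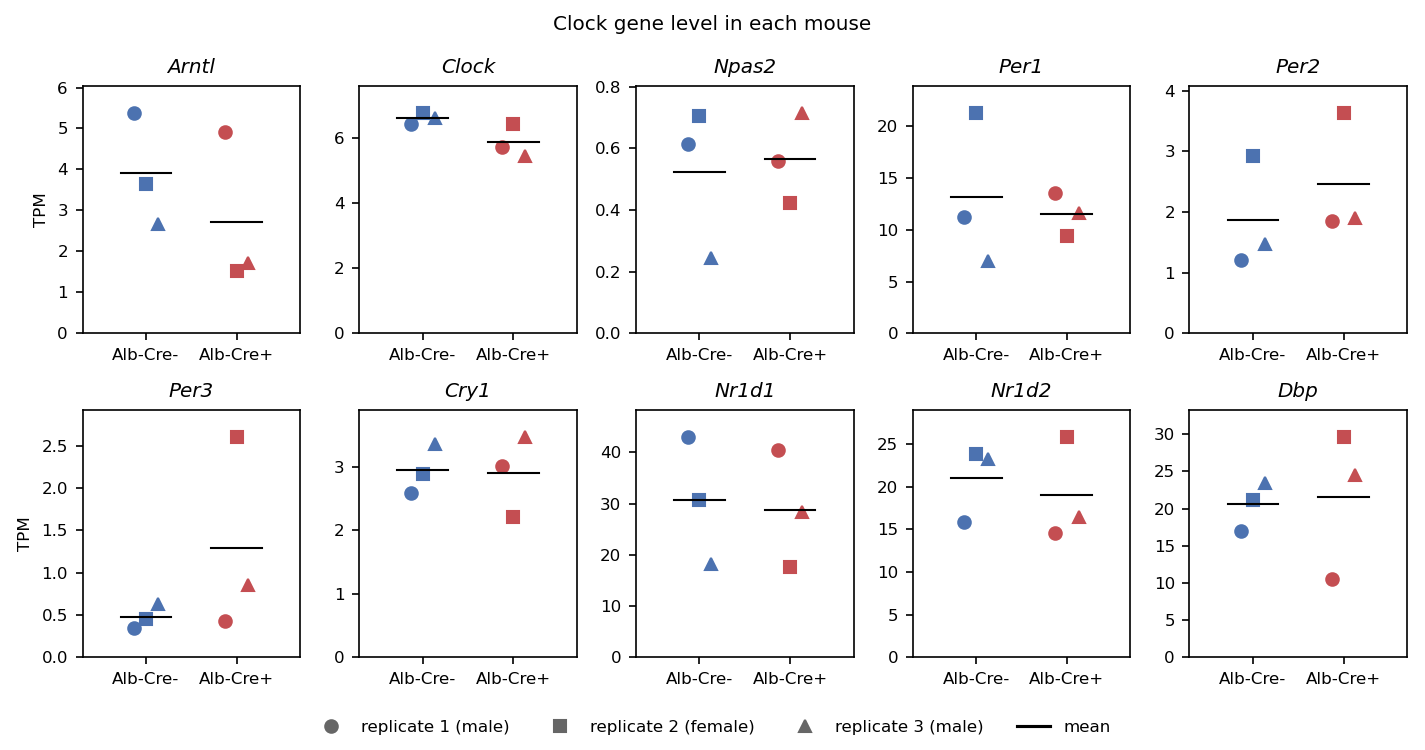
TPM of the 10 clock genes (y axis, from 0) in each Alb-Cre- mouse (blue) and Alb-Cre+ mouse (red), with the marker shape for the replicate number and a line at the group mean. The groups overlap for every gene but *Clock*, for which the Alb-Cre+ values of 5.46 to 6.42 TPM lie below the Alb-Cre- values of 6.44 to 6.78 TPM.

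Among the activators, *Arntl* (chr7:113207465-113314126, plus strand, GRCm38), the partner that every active complex of the loop needs, had 4.92, 1.52 and 1.71 TPM in Alb-Cre+ replicates 1, 2 and 3 (2.72 ± 1.91, SD, n = 3) and 5.39, 3.64 and 2.68 TPM in Alb-Cre- replicates 1, 2 and 3 (3.91 ± 1.37, SD, n = 3). Replicate 1 was the highest mouse of both genotypes, and within each number the Alb-Cre+ mouse was the lower, with log2 differences of -0.13, -1.20 and -0.62. The log2 fold change was -0.65 ± 0.48 (SE, 95% confidence interval -1.79 to 0.49), with a limma p of 0.219 before adjustment and a two-sided exact permutation p of 0.3, for which 0.1 is the smallest value that 3 against 3 mice allow. When the replicate number was added as a block, the interval became -1.27 to -0.03 and the unadjusted limma p 0.0422, with an adjusted p of 0.999. *Arntl* was the only clock gene with an unadjusted p under 0.05 in that fit, in which 4.69% of all genes had one. When levels were also scaled by median of ratios, the unadjusted limma p of *Arntl* with the block was 0.055. With a pseudocount of 1 TPM instead it was 0.0483. The value rested in part on Alb-Cre+ replicate 1: without this mouse the log2 fold change was -1.17 (limma adjusted p = 1), and without Alb-Cre+ replicate 2 it was -0.36.

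*Clock* (chr5:76209868-76304792, minus strand), the main partner of ARNTL, was the steadiest of the 10 genes. It had 5.72, 6.42 and 5.46 TPM in Alb-Cre+ mice (5.86 ± 0.495, SD, n = 3) and 6.44, 6.78 and 6.61 TPM in controls (6.61 ± 0.171, SD, n = 3). It was the only clock gene whose groups did not overlap, which 4.90% of all genes tested also showed, and its log2 fold change was small, at -0.17 ± 0.16 (SE, exact permutation p = 0.1). The groups overlapped when levels were scaled by median of ratios, with Alb-Cre+ replicate 3 at 6.4 and Alb-Cre- replicate 2 at 6.25 scaled TPM, and when protein-coding transcripts alone were summed, with Alb-Cre+ replicate 2 at 6.24 and Alb-Cre- replicate 1 at 6.15 TPM.

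*Npas2* (chr1:39193731-39363236, plus strand), which can stand in for CLOCK, was the lowest of the 10 genes. Its level was 0.559, 0.424 and 0.716 TPM in Alb-Cre+ mice and 0.615, 0.705 and 0.245 TPM in controls. Its log2 fold change was 0.17 ± 0.42 (SE, 95% confidence interval -0.82 to 1.15, exact permutation p = 0.8), and without Alb-Cre- replicate 3 it was -0.21. Between 53.8% and 83.8% of the *Npas2* TPM of a mouse was assigned to a transcript of 484 bases in 3 exons, so that the sum says little about the full-length mRNA.

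Of the inhibitors, *Per1* (chr11:69095217-69109960, plus strand), a PER gene that also responds quickly to hormones and other signals, had 13.5, 9.37 and 11.6 TPM in Alb-Cre+ mice (11.5 ± 2.09, SD, n = 3) and 11.2, 21.3 and 6.96 TPM in controls (13.1 ± 7.36, SD, n = 3). The controls spanned a wider range than the Alb-Cre+ mice and enclosed it. Alb-Cre- replicate 2, which had the highest *Per1*, also had the highest *Ppargc1a* (12.6 TPM), *Pdk4* (54.4 TPM) and *Fgf21* (70.4 TPM), genes that fasting induces in liver, and the highest *Bhlhe40* (66 TPM) and *Noct* (17 TPM). The other fasting genes did not follow this: the same mouse was second lowest for *Pck1* (1110 TPM) and *G6pc* (48 TPM), enzymes of gluconeogenesis, and not the highest for *Angptl4* or *Igfbp1*. The part of these in its *Per1* level was not tested, and these genes were singled out after their values were seen. *Per1* had a log2 fold change of -0.06 ± 0.39 (SE, exact permutation p = 1), which was 0.36 without that mouse.

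*Per2* (chr1:91415982-91459324, minus strand), the PER gene with the strongest part in the loop, had 1.85, 3.64 and 1.9 TPM in Alb-Cre+ mice (2.47 ± 1.02, SD, n = 3) and 1.21, 2.92 and 1.47 TPM in controls (1.87 ± 0.924, SD, n = 3). The female was the highest of each group, and the Alb-Cre+ mouse was the higher of each number, by 0.58, 0.31 and 0.35 on the log2 scale. On average the log2 fold change was 0.41 ± 0.42 (SE, 95% confidence interval -0.57 to 1.40, exact permutation p = 0.5), and it was 0.11 without Alb-Cre+ replicate 2. In Alb-Cre+ replicate 1, only 56.2% of the *Per2* TPM was on the main transcript. With protein-coding transcripts alone that mouse had 1.04 TPM, below its Alb-Cre- counterpart, and the log2 fold change was 0.15 ± 0.50 (SE).

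*Per3* (chr4:151003652-151044665, minus strand), the PER gene that the loop can run without, varied most. It had 0.427, 2.61 and 0.85 TPM in Alb-Cre+ mice (1.29 ± 1.16, SD, n = 3) and 0.348, 0.453 and 0.629 TPM in controls (0.477 ± 0.142, SD, n = 3), a 7.49-fold range over the 6 mice. Alb-Cre+ replicate 2 was far above the other mice. For *Per3* the log2 fold change was 0.97 ± 0.60 (SE, 95% confidence interval -0.45 to 2.38, exact permutation p = 0.3). It was 0.32 without that mouse and 1.50 without Alb-Cre+ replicate 1 (limma adjusted p = 1). Of all *Per3* TPM, 78.4% was on protein-coding transcripts, and on these the Alb-Cre+ mouse was lower, not higher, in replicate 3 (0.389 against 0.538 TPM).

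*Cry1* (chr10:85131700-85185064, minus strand), the strong inhibitor of ARNTL and CLOCK, had close to the same mean in both groups. Its level was 3.02, 2.21 and 3.48 TPM in Alb-Cre+ mice (2.9 ± 0.644, SD, n = 3) and 2.59, 2.89 and 3.36 TPM in controls (2.94 ± 0.388, SD, n = 3). Between the genotypes the log2 fold change was -0.03 ± 0.25 (SE, 95% confidence interval -0.62 to 0.55, exact permutation p = 1).

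Of the repressors, *Nr1d1* (chr11:98767932-98775333, minus strand), which encodes REV-ERBα, had 40.4, 17.7 and 28.4 TPM in Alb-Cre+ mice (28.9 ± 11.4, SD, n = 3) and 43.1, 30.8 and 18.2 TPM in controls (30.7 ± 12.5, SD, n = 3). Replicate 1 was the highest of each genotype, as for *Arntl*. Its log2 fold change was -0.08 ± 0.39 (SE, exact permutation p = 0.7), and it was 0.23 without Alb-Cre+ replicate 2. Exons of *Nr1d1* overlap those of *Thra* on the opposite strand over 263 bases, and whether the libraries kept strand is not given in the sources used here.

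*Nr1d2* (chr14:18204054-18239127, minus strand), which encodes REV-ERBβ, had 14.6, 25.9 and 16.5 TPM in Alb-Cre+ mice (19 ± 6.06, SD, n = 3) and 15.9, 23.8 and 23.3 TPM in controls (21 ± 4.44, SD, n = 3). Replicate 1 was the lowest of each genotype, opposite to *Nr1d1*. The difference was -0.16 ± 0.26 on the log2 scale (SE, 95% confidence interval -0.78 to 0.45). Of its stretches of 31 bases, 9.51% also occur in another annotated gene.

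*Dbp* (chr7:45705088-45710203, plus strand), the output activator, had 10.5, 29.7 and 24.5 TPM in Alb-Cre+ mice (21.6 ± 9.95, SD, n = 3) and 17, 21.2 and 23.5 TPM in controls (20.5 ± 3.32, SD, n = 3). Replicate 1 was the lowest of each genotype here too. Here the log2 fold change was -0.05 ± 0.38 (SE, 95% confidence interval -0.94 to 0.84, exact permutation p = 1), and it was 0.40 without Alb-Cre+ replicate 1. Exons of *Dbp* overlap *Sphk2* on the opposite strand over 539 bases, and 16.9% of its stretches of 31 bases are shared, so its TPM may hold reads of that gene.

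In order of mean TPM over the 6 mice, *Nr1d1* (29.8) was followed by *Dbp* (21), *Nr1d2* (20), *Per1* (12.3), *Clock* (6.24), *Arntl* (3.31), *Cry1* (2.92), *Per2* (2.17), *Per3* (0.886) and *Npas2* (0.544). Most neighbours in this order overlapped between mice. The exceptions were *Per1*, whose lowest value of 6.96 TPM lay above the highest *Clock* value of 6.78 TPM, and *Clock*, whose lowest value of 5.46 TPM lay above the highest *Arntl* value of 5.39 TPM.

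**Figure D2:**
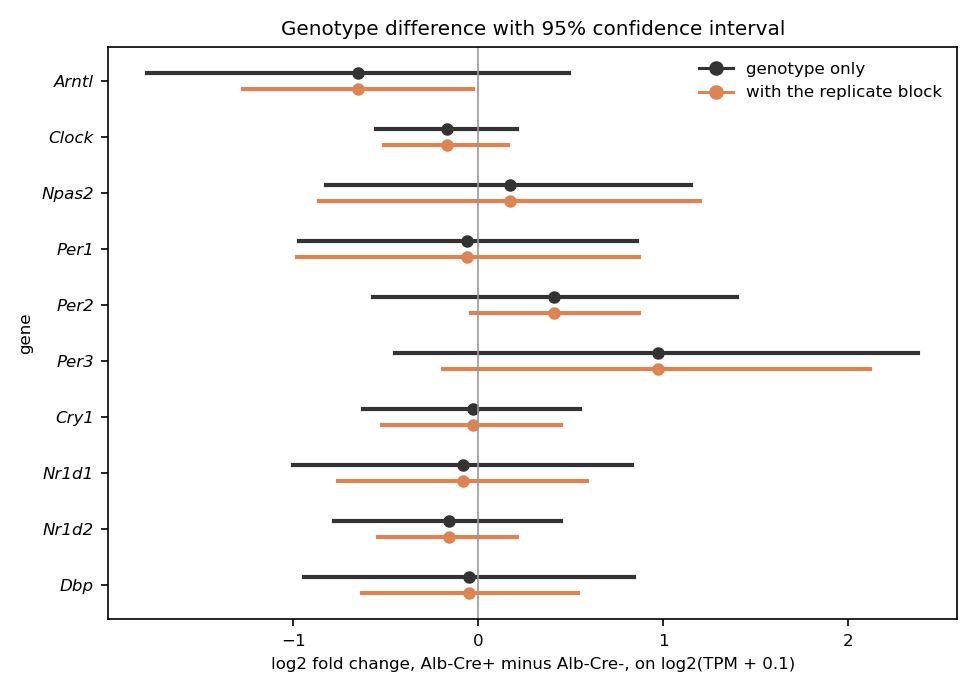
Log2 fold change of each clock gene (x axis, Alb-Cre+ minus Alb-Cre- on log2(TPM + 0.1)) with its 95% confidence interval from limma, without (black) and with (orange) the replicate number as a block. Without the block all 10 intervals hold 0, and with it the interval of *Arntl*, -1.27 to -0.03, is the only one that does not.

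Compared by number, 4 of the 10 genes had a difference of the same sign in each of the 3 pairs of mice that share a number, as did 23.9% of all genes tested. *Arntl* and *Clock* were lower in Alb-Cre+ mice and *Per2* and *Per3* higher. With protein-coding transcripts alone, 2 genes did so, *Arntl* and *Clock*, and after scaling by median of ratios 5 did.

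Before adjustment, the levels of several clock genes went with the replicate number, as did those of many other genes. In a moderated F test of the number in limma, with genotype in the model, 4 of the 10 genes (40.0%) had an unadjusted p under 0.05, against 26.0% of all genes tested, and none passed an adjusted p of 0.01, where 39 genes (0.275%) did. These were *Per2* (limma adjusted p = 0.0878), *Arntl* (adjusted p = 0.118), *Nr1d2* (adjusted p = 0.153) and *Dbp* (adjusted p = 0.173). The number accounted for 83.0% of the variance of *Per2* over the 6 mice, 78.3% for *Nr1d2*, 74.0% for *Dbp* and 66.1% for *Arntl*, while genotype accounted for 23.3% of the variance of *Arntl*. The median share was 65.6% over the clock genes and 64.1% over all genes tested, so a high share was not particular to them. Number 2 is also the female pair with more macrophage and neutrophil RNA, so for this pair sex, cell content and the number cannot be told apart. Numbers 1 and 3 are all males, with macrophage sums of 181 and 176 TPM for number 1 and 116 and 158 TPM for number 3 (Alb-Cre+ and Alb-Cre-), and *Arntl* was 4.92 and 5.39 TPM against 1.71 and 2.68 TPM. The part of cell content in these levels was not tested.

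**Figure D3:**
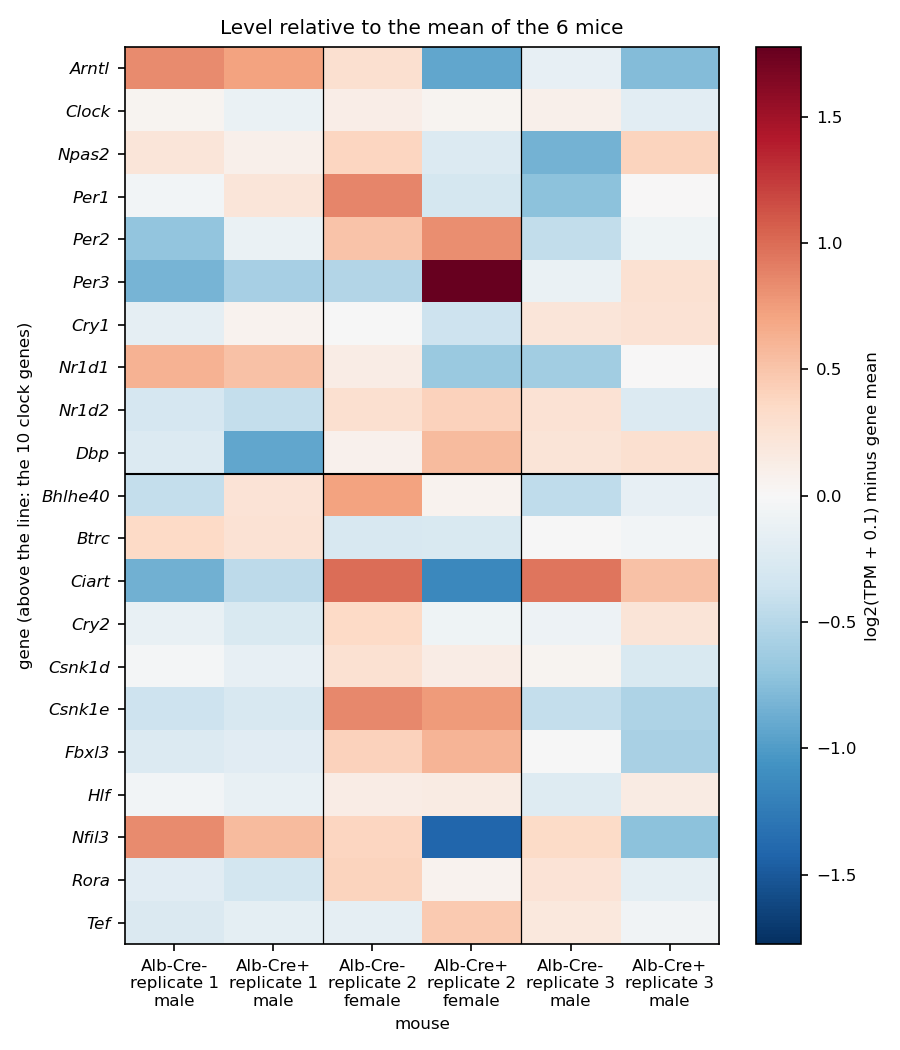
Level of each gene (rows) in each mouse (columns, paired by replicate number) relative to the gene's mean over the 6 mice, in log2(TPM + 0.1), for the 10 clock genes above the line and, below it, other clock genes reported here whose mean was 1 TPM or more. Both replicate 1 mice have *Arntl*, *Nr1d1* and *Nfil3* above and *Per3*, *Nr1d2* and *Dbp* below the mean, and Alb-Cre+ replicate 2 has the reverse for these 6 genes.

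The position of each mouse in the cycle was described by ratios of genes that peak far apart, which do not depend on how libraries are scaled. The ratio of *Arntl* to *Dbp* was 0.47, 0.0513 and 0.0698 in Alb-Cre+ replicates 1, 2 and 3 and 0.318, 0.172 and 0.114 in the controls. Replicate 1 was highest in both genotypes, and the 6 mice spanned a 9.19-fold range. The ratio of *Nr1d1* to *Per2* was 21.8, 4.86 and 14.9 in Alb-Cre+ mice and 35.7, 10.5 and 12.4 in controls, a 7.36-fold range. Both replicate 1 mice were again above the other 4 mice, and Alb-Cre+ replicate 2 was lowest on both ratios. For another measure, the mean log2 level of the other clock genes except *Cry1*, which was left out, was subtracted from that of *Arntl*, *Clock* and *Npas2*. This difference, activators minus the others, was -1.34, -2.69 and -2.04 in Alb-Cre+ mice and -1.15, -1.75 and -1.95 in controls. It set the same 3 mice at its ends.

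The genotypes overlapped on all 3 measures. The log2 ratio of *Arntl* to *Dbp* was -3.07 ± 1.73 (SD, n = 3) in Alb-Cre+ mice and -2.44 ± 0.75 (SD, n = 3) in controls, and that of *Nr1d1* to *Per2* was 3.54 ± 1.13 and 4.06 ± 0.96. The differences of -0.63 and -0.52 were smaller than the SD of either group. The activators minus the others, again without *Cry1*, had means of -2.02 ± 0.68 and -1.62 ± 0.42 (SD, n = 3), a difference of -0.41. This measure was lower in the Alb-Cre+ mouse of each number. The replicate 1 mice had a high *Arntl* and *Nr1d1* with low *Per3*, *Nr1d2* and *Dbp*. Alb-Cre+ replicate 2 had a low *Arntl* and *Nr1d1* with high *Per2*, *Per3* and *Dbp*. By the order of peaks given above for *Arntl*, *Nr1d1*, *Dbp* and the *Per* genes, the former pattern precedes the latter, which need not lie in the light phase. No hour or phase is assigned to any mouse, because no set of livers of known time was analysed here. A difference in collection time and a shift of the clock cannot be told apart. The part of sex, cell content or food intake in these patterns was not tested. *Per1* did not order the mice in this way, with 13.5 TPM in Alb-Cre+ replicate 1, the second highest of the 6 mice. *Cry1*, whose peak lies late in the dark phase, ranged only from 2.21 to 3.48 TPM and did not do so either. Nor did *Npas2*, which peaks near *Arntl*. It had 0.559 and 0.615 TPM in the replicate 1 mice (Alb-Cre+ and Alb-Cre-). Alb-Cre+ replicate 3, at 0.716 TPM, and Alb-Cre- replicate 2, at 0.705 TPM, had more.

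**Figure D4:**
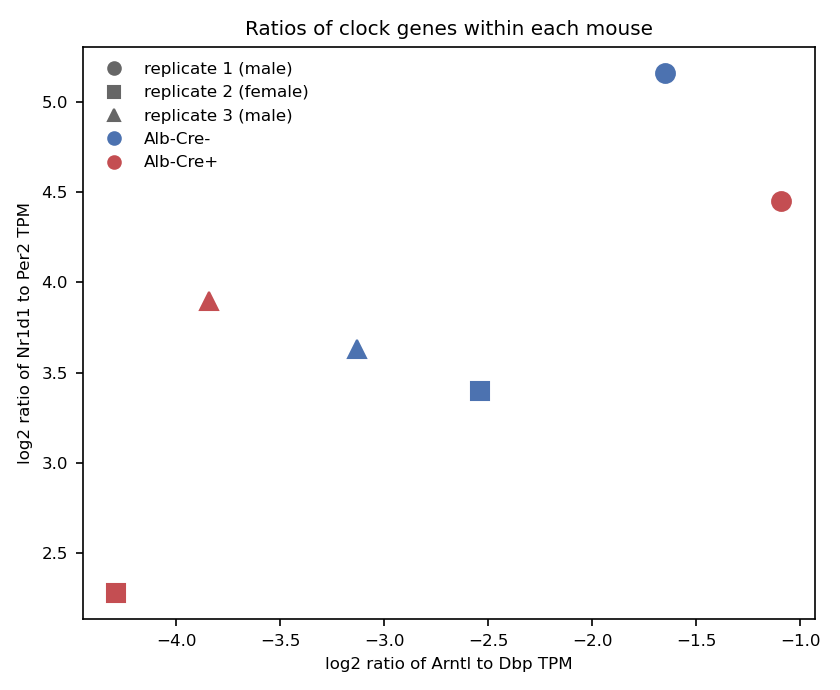
Log2 ratio of *Arntl* to *Dbp* TPM (x axis) against the log2 ratio of *Nr1d1* to *Per2* TPM (y axis) in each mouse, with colour for genotype and shape for replicate number. Both replicate 1 mice lie at the upper right, and Alb-Cre+ replicate 2 lies at the lower left with ratios of 0.0513 and 4.86.

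Across the 6 mice, the other 9 clock genes were compared with *Arntl* on log2(TPM + 0.1), as a family of 9 relations. *Per3* was lower in each mouse with more *Arntl*, in strict order, with Pearson's r = -0.87 (exact permutation p = 0.00139, adjusted p = 0.0125) and Spearman's rho = -1 (exact permutation p = 0.00278, adjusted p = 0.025). *Dbp* was also opposite to *Arntl*, with r = -0.83 (exact permutation p = 0.025, adjusted p = 0.113) and rho = -0.94 (exact permutation p = 0.0167, adjusted p = 0.05). *Nr1d1* went with *Arntl*, with r = 0.80 (exact permutation p = 0.0639, adjusted p = 0.192) and rho = 0.94 (exact permutation p = 0.0167, adjusted p = 0.05). The repressor of *Arntl* was highest in the mice with the most *Arntl*. Without the pair of mice farthest from the median of *Arntl*, Alb-Cre+ replicates 2 and 3, r was -0.95 for *Per3*, -0.74 for *Dbp* and 0.98 for *Nr1d1*, and within the 4 males it was -0.99, -0.79 and 0.68. On protein-coding transcripts the relation of *Per3* was r = -0.69 and rho = -0.94. *Per2* (r = -0.55) and *Nr1d2* (r = -0.53) were opposite with adjusted permutation p of 0.487 each, and *Per1* (r = 0.37), *Npas2* (r = 0.22), *Clock* (r = 0.18) and *Cry1* (r = 0.03) lay closer to 0. These values rested on which mice were kept: without the same pair of mice r was -0.82 for *Cry1*, 0.74 for *Npas2*, -0.56 for *Clock*, -0.87 for *Nr1d2* and -0.22 for *Per2*, and within the males it was -0.89 for *Cry1*. The 6 mice include both genotypes and both sexes, so these values describe how the genes varied together and do not separate the sources of that variation. The permutations treat the 6 mice as exchangeable, although they differ by genotype, sex and number. The adjustment covers only these 9 relations, of genes given with earlier results known. The p values are therefore descriptive.

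Among 10634 genes whose mean was 1 TPM or more, those whose pattern over the 6 mice was most like that of *Arntl* were *Arhgap24* (r = 0.993), *Ehd3* (r = 0.983), *Nubp2*, *Haus5* and *Irf2bp2* (r = 0.980 each). The most opposite were *Zfp768* (r = -0.969), *Zfp27* (r = -0.957), *Adarb1* (r = -0.956), *Otud3* (r = -0.955) and *Gdap2* (r = -0.951). Of the clock genes, *Nfil3*, at r = 0.935, ranked 27 from the top, *Nr1d1* ranked 241 from the top and *Dbp* 81 from the bottom. With 6 mice, many genes reach such values, and no p is given.

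Most clock genes spread more between mice of a genotype than the median gene. Each genotype held both sexes, so this spread includes any difference by sex, and the genes compared were not matched by mean level. The SD of log2(TPM + 0.1) within genotype had a median of 0.59 over the 10 genes, against 0.33 over all genes tested, and 8 of the 10 were above that median. *Per3* (SD 0.88, percentile 91.2 among all genes tested) and *Arntl* (SD 0.72, percentile 85.8) spread most, followed by *Nr1d1* (SD 0.61), *Per1* (SD 0.60), *Per2*, *Dbp* (SD 0.59 each) and *Npas2* (SD 0.52). *Nr1d2* had an SD of 0.38 and *Cry1* of 0.26. *Clock*, which cycles weakly in liver, had an SD of 0.09, at percentile 3.19.

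**Figure D5:**
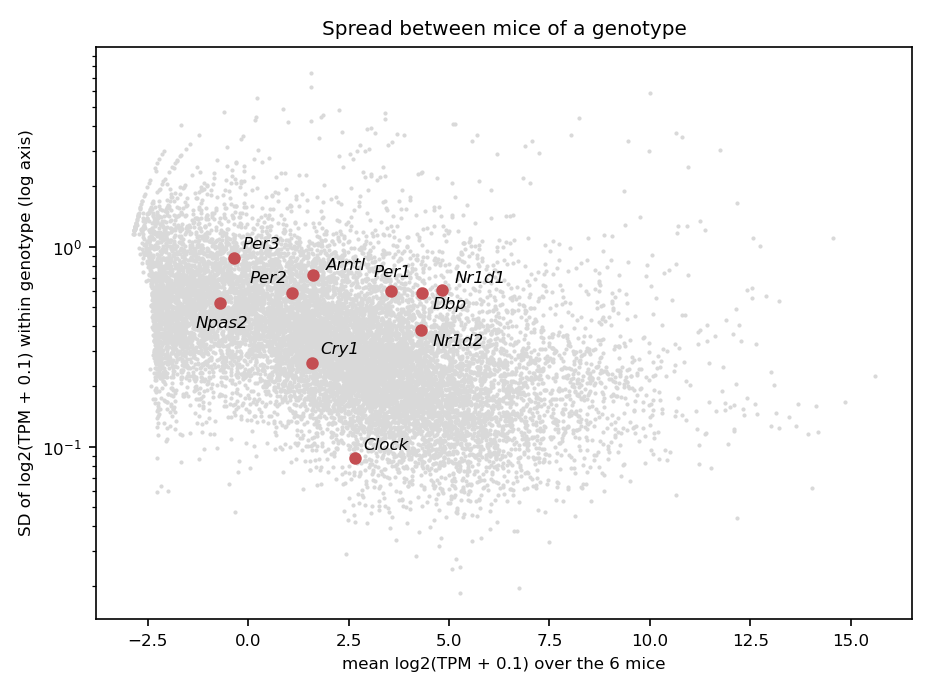
SD of log2(TPM + 0.1) within genotype (y axis, log scale) against the mean log2(TPM + 0.1) over the 6 mice (x axis) for all genes tested (grey) and the 10 clock genes (red). *Per3* and *Arntl*, at 0.88 and 0.72, are the highest clock genes, and *Clock*, at 0.09, lies near the lower edge of all genes.

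Of 16 other genes of the clock, 15 were tested, 7 were higher and 8 lower in Alb-Cre+ mice (median log2 fold change -0.04), and none had an unadjusted limma p under 0.05 or groups that did not overlap. *Nfil3*, which encodes the repressor E4BP4 of D-box genes, had the largest difference. Its level was 13.4, 3.32 and 5.39 TPM in Alb-Cre+ mice and 16.2, 11.7 and 11.4 TPM in controls, so that Alb-Cre+ replicate 1 overlapped the controls. Its log2 fold change was -1.04 ± 0.47 (SE), with a limma adjusted p of 0.817 with the replicate block. In that fit *Nfil3* was the only gene of the list with an unadjusted p under 0.05, against 4.69% of all genes. *Ciart*, an inhibitor of ARNTL and CLOCK, had 11.8, 7.33 and 23.4 TPM in Alb-Cre+ mice and 9.02, 32.6 and 31.7 TPM in controls (log2 fold change -0.73 ± 0.59, SE). *Rora*, which encodes a RORE-binding activator, had a log2 fold change of -0.29 ± 0.21 (SE). The number had an unadjusted p under 0.05 for 5 of the 15 (33.3%), against 26.0% of all genes tested.

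The 12 rhythmic output genes of liver split into 7 higher and 5 lower (median log2 fold change 0.08), with none at an unadjusted limma p under 0.05. With the replicate block 2 of the 12 had one, *Cyp7a1* (limma adjusted p = 0.675) and *Tspan4* (log2 fold change 0.36, limma adjusted p = 0.965), against 4.69% of all genes. *Elovl3*, a fatty acid elongase that is rhythmic and higher in males, had 31.5, 1.21 and 75.3 TPM in Alb-Cre+ mice and 12, 1.73 and 17.3 TPM in controls (log2 fold change 1.01 ± 1.54, SE), and both females were far below the males. *Cyp7a1*, the rate-limiting enzyme of bile acid synthesis, had 80.2, 23.1 and 39.5 TPM in Alb-Cre+ mice and 135, 30.2 and 50.7 TPM in controls (log2 fold change -0.50 ± 0.62, SE), and replicate 1 was highest and replicate 2 lowest in both genotypes. *Wee1*, a kinase of the cell cycle, and *Upp2*, a uridine phosphorylase, had log2 fold changes of 0.50 ± 0.49 and -0.41 ± 0.53 (SE). Of these 12 genes, 7 (58.3%) had an unadjusted p under 0.05 for the number, against 26.0% of all genes tested, and none passed the adjusted threshold.

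Genes that follow signals known to act on the liver clock were also counted, and none of them passed limma's adjusted threshold or had an unadjusted p under 0.05 for genotype without the replicate block. Of 7 genes set by body temperature, 4 were higher and 3 lower (median log2 fold change 0.04). Among those whose mean was 1 TPM or more, the largest differences were those of the heat shock genes *Hsph1* (log2 fold change -0.59), *Dnajb1* (-0.41) and *Hspa8* (-0.17) and of the cold-induced *Cirbp* (0.12). Of 3 glucocorticoid-responsive genes, *Sgk1* (-0.42) and *Tsc22d3* (-0.41) were lower and *Fkbp5* (0.31) was higher. Of 7 fasting genes, 3 were higher and 4 lower (median log2 fold change -0.39). *Fgf21*, a hormone that the fasting liver secretes, had 4.52, 16.9 and 2.57 TPM in Alb-Cre+ mice and 22.7, 70.4 and 9.19 TPM in controls, with log2 differences of -2.31, -2.06 and -1.80 in the same-numbered pairs. The log2 fold change of *Fgf21* was -2.05 ± 0.88 (SE), and with the replicate block its limma adjusted p was 0.058, the smallest of any gene in that fit. *Ppargc1a*, a coactivator of gluconeogenesis, *Igfbp1*, which binds insulin-like growth factors, and *Pdk4*, which restrains glucose oxidation, had log2 fold changes of -1.08 ± 0.53, -0.85 ± 0.50 and 0.73 ± 1.06 (SE). With the replicate block, 3 of the 7 fasting genes had an unadjusted p under 0.05, *Fgf21*, *Igfbp1* (limma adjusted p = 0.914) and *Angptl4* (log2 fold change 0.50, limma adjusted p = 0.738), against 4.69% of all genes, and no gene of the temperature, glucocorticoid or feeding lists had one. The number had an unadjusted p under 0.05 for 6 of the 7 fasting genes (85.7%), against 26.0% of all genes tested. Among the fasting genes only *Fgf21* passed the adjusted threshold for the number (limma F test adjusted p = 0.00978). Of the feeding genes, *Srebf1*, a regulator of lipid synthesis, had a log2 fold change of -0.03. The part of food intake, temperature or hormones in the levels of the clock genes was not tested.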

How the data were processed

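Liver RNA of 3 Alb-Cre+ and 3 Alb-Cre- mice was analysed. The authors deposited TPM per transcript and mouse, scaled to a total of 1000000 per mouse. The table is labelled as salmon output, while the methods name STAR and RSEM on GRCm38, and strand is not stated. TPM hold no read numbers, so neither the depth of a mouse nor a counting error can be given. A second deposited table holds the authors' own DESeq2 comparison and was not used.

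TPM were summed per gene symbol (35540). The 163 of 116748 transcripts without a symbol, at most 0.089% of the TPM of a mouse, were left out. Symbols whose mean was 0.1 TPM or more (14189) entered limma 3.58.1 (R 4.3.3) as log2(TPM + 0.1). The model held genotype alone, with moderated variances that follow a trend on mean level. Fold changes are on this scale, which understates the change of low genes. The Benjamini-Hochberg adjustment covered all of them. The replicate number was tested by a moderated F test with genotype in the model. Single genes were also compared by exact permutation tests, and correlations by exact permutation (scipy 1.17.1). The procedure was tested on simulated data.

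Mice of the same number deviated together over 14189 genes (r = 0.367, 0.588 and 0.37 for numbers 1, 2 and 3), so the numbers, which are from the labels, were taken as pairs. Males of different numbers had r of 0.171 and 0.091, and a male and a female had r between -0.444 and -0.351. Deviations were taken from the mean of each genotype, so those of its mice cancel out. The negative values are therefore in part set by the positive ones. Mice of a number also share sex, and its part in the same-number values was not tested. Nothing states what a number shares, and separate animals are the replicates.

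The clock genes were given by name, and all lists and tests were chosen with earlier results of these data known. Genes of the other lists are named when their mean is at least 1 TPM and their log2 fold change is among the 4 largest of the list, and some genes that meet this are not reported here. Genes like *Arntl* are the 5 with the highest and the 5 with the lowest Pearson correlation. The alternatives run were a replicate block, a sex covariate, a pseudocount of 1 TPM, no filter, a minimum of 1 TPM, median of ratios, no trend, an adjusted p of 0.05 and each mouse left out. The block with median of ratios or with a pseudocount of 1 TPM, and protein-coding transcripts alone, were added after seeing the data. Biotypes, positions and shared stretches of 31 bases are from GENCODE M21 on GRCm38.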

Additional observations from a re-analysis of the deposited data

Results flagged for a closer look

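For 3 of the 10 clock genes, the genotypes differed one way in the female pair and the other way in both male pairs, and the difference between the sexes was not tested. The log2 difference, Alb-Cre+ minus Alb-Cre-, in the female pair was -1.18 for *Per1*, against 0.27 and 0.73 in the male pairs. It was -0.37 for *Cry1*, against 0.22 and 0.05 in the male pairs, and 0.12 for *Nr1d2*, against -0.12 and -0.49 in the male pairs. After median of ratios the female pair of *Nr1d2* was at -0.04, on the same side as the males. Of all genes tested, 32.9% had a female pair opposite to both male pairs, and each sex difference rests on a single pair of females.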

How the results depend on the processing

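The number of clock genes that passed the adjusted threshold for genotype or for the replicate number was 0 under every alternative run, with 0.887 as the smallest adjusted p of a clock gene for genotype. A minimum mean of 1 TPM left 8 of the 10 genes tested, without *Npas2* and *Per3*. The replicate block changed no call among the clock genes, 0 of 14189 genes passed with it, and beside the unadjusted p of *Arntl* given above no other clock gene went below 0.05 with it. Of all genes, 0 to 1 passed for genotype when each mouse was left out. The single gene was *Gm10240* without Alb-Cre+ replicate 1 (0, 159 and 134 TPM in Alb-Cre+ and 0 in each Alb-Cre- mouse, limma adjusted p = 0.000309), named after its values were seen. Of 98 fold changes of clock genes recomputed under the other alternatives, 0 changed sign, while of 60 recomputed with a mouse left out 10 did. These ranged from -0.21 to 0.40 for *Npas2*, from -0.44 to 0.36 for *Per1*, from -0.17 to 0.14 for *Cry1*, from -0.42 to 0.23 for *Nr1d1*, from -0.41 to 0.00 for *Nr1d2* and from -0.34 to 0.40 for *Dbp*. The mice whose removal turned the sign were Alb-Cre+ replicate 1 (*Nr1d2*, *Dbp*), Alb-Cre+ replicate 2 (*Per1*, *Cry1*, *Nr1d1*), Alb-Cre- replicate 1 (*Nr1d1*), Alb-Cre- replicate 2 (*Per1*) and Alb-Cre- replicate 3 (*Npas2*, *Cry1*, *Dbp*). The median SD of the clock genes within genotype, 0.59, was 0.46 with a pseudocount of 1 TPM and 0.47 to 0.64 with a mouse left out. The median over all genes at these settings is not given here. The 39 genes that passed for the replicate number became 25 with a pseudocount of 1 TPM, 6 with no filter, 22 with median of ratios, 8 without the trend, 97 with protein-coding transcripts alone and 494 at an adjusted p of 0.05. The cause was not tested. TPM carry no depth, so the precision of *Npas2* and *Per3*, both under 1 TPM on average, is limited by an unknown number of reads.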
